A study of Homo sapiens with 6 samples.

Results

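The regions described here are TEAD peaks that lie close together on the genome yet overlap no YAP peak and no YAP5SA peak, in ChIP-seq (chromatin immunoprecipitation followed by sequencing) of the human cell line CCLP1. They were chosen by position alone. Of 9321 TEAD peaks, 8489 are called eligible: they lay on chromosomes 1 to 22 and over 2 Mb away from the 18 autosomal stretches, each longer than 2.5 Mb, in which none of the 3 lists has a peak. Of these, 2228 stood in 510 runs of 3 or more, each peak within 12500 bp of the next. A total of 2021 of the 2228 overlapped no peak of the YAP or YAP5SA list by even 1 bp, and these 2021 peaks are the clustered unshared TEAD peaks. They were 23.8% of the eligible list and lay in 508 of the 510 runs.

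CCLP1 is an established line derived from a bile duct cancer, and the series has 1 library per group and 6 in all. The TEAD library was made with a TEAD antibody, named TEAD1 in the series' design text. The YAP library was made with a YAP antibody, and the YAP5SA library is labelled Flag-Bio-YAP5SA, a tagged YAP mutant, with the BirA library as the control of the tagged protein. IgG and input DNA complete the set, and only the TEAD, YAP and YAP5SA peak lists (9321, 3867 and 9616 peaks) were analysed here. All groups share the cell line and the fixation, 10 min in 1% formaldehyde stopped with 0.125 M glycine, and fragments of about 250 bp. How the tagged mutant was introduced, and whether the cells that carry it are 1 clone, is not given in the sources used here. Peak lists hold no expression values, so the identity of the cells could not be checked against markers. With 1 library behind each list there is no replicate error, and read depth is unknown. The values are descriptions of these lists, with no test, because position and overlap chose the peaks.

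TEAD proteins are DNA-binding transcription factors that sit mainly at distal enhancers. YAP, the co-activator restrained by the Hippo kinase cascade, has no DNA-binding domain and reaches chromatin largely through TEAD. In YAP5SA, serines that LATS kinases phosphorylate are changed to alanine, so the protein escapes that restraint and accumulates in the nucleus. TEAD can also bind DNA with other partners, such as the VGLL proteins. Dense groups of enhancers are called super-enhancers, and a distance of 12500 bp is in common use for joining their parts. Positions are in hg19, counted from 1. No hg19 sequence or annotation was used here, so the peaks carry no gene, motif or sequence.

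By median score, clustered unshared TEAD peaks stood between unshared peaks outside runs and peaks that met YAP or YAP5SA. The deposited score of a peak, read from its range as −log10 of a p-value, multiplied by 10, starts at 50 in this list and ends at 3100. Their median score was 100.05 (95% interval of the median 96.9 to 104.7), with an interquartile range of 66.8 to 182. The 5874 unshared TEAD peaks outside such runs had a median of 69.1 (68.0 to 69.6; interquartile range 57.6 to 102). The 207 TEAD peaks in runs that did meet YAP or YAP5SA had a median of 526 (449 to 633; interquartile range 240 to 902). For the 387 TEAD peaks outside runs that met YAP or YAP5SA the median was 277 (237 to 332, with an interquartile range of 112 to 621). The intervals of these medians do not overlap, but neighbouring peaks of a run are not independent, so these intervals are too narrow. Widths followed the same order, with medians of 189 bp for the unshared peaks outside runs and 249 bp for the clustered unshared peaks. Among peaks that met another list the medians were 373 bp outside runs and 511 bp in runs.

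**Figure D1:**
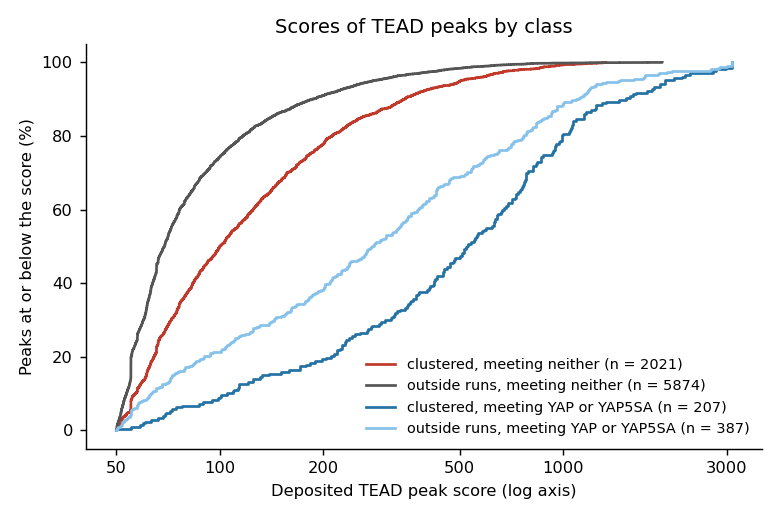
Cumulative share of TEAD peaks (vertical axis, %) at or below each deposited score (horizontal axis, log scale) for 4 classes of eligible TEAD peaks. The curve of the 2021 clustered unshared peaks (red, median 100.05) runs between the unshared peaks outside runs (grey, median 69.1) and the 207 clustered peaks that met YAP or YAP5SA (dark blue, median 526).

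These peaks were less frequent than all eligible peaks at scores of 1000 or more and in the lowest 10% of scores, but not in the highest 10%. A score of 1000 or more was reached by 14 of the 2021 (0.693%, exact 95% interval 0.379 to 1.16), against 1.3% of all eligible TEAD peaks, and 99 fell in the lowest 10% of the eligible list by score (4.90%), where 10% of all eligible peaks lie by construction. The highest 10% held 255 of them (12.6%, 11.2 to 14.1), against 10% of all eligible peaks. All eligible peaks include the 594 that met YAP or YAP5SA, which the rule removed and which had higher median scores. The rule therefore sets part of the differences at high scores, and the deficit at 1000 or more is not read as a trait of these peaks. With the eligible list split by score into 10 equal parts, the clustered unshared share was 11.7% in the weakest part, 38.0% in the part with scores of 167 to 301 and 30.0% in the strongest part. In that strongest part, from 301 upward, 63.6% of the 401 clustered peaks met neither YAP nor YAP5SA, as did 58.5% of the peaks outside runs. In the weakest part these shares were 99% and 98.1%. Over all scores, 90.7% of clustered peaks (89.4 to 91.9) and 93.8% of peaks outside runs met neither list, and the share for all eligible peaks was 93%.

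Unshared peaks with more neighbours had higher median scores, up to runs of about 3. Unshared TEAD peaks standing alone had a median score of 66.2 (65.5 to 67.0, 4647 peaks), and those in pairs, which the rule leaves out, 84.3 (80.5 to 87.6, 1227 peaks). Runs of 3 gave 95.3 (89.6 to 102), runs of 4 gave 104 (90.0 to 116) and runs of 5 gave 99.98 (89.3 to 113). Peaks in runs of 8 to 10 had a median of 99.1 (84.3 to 114), and those in the 11 largest runs 113 (97.3 to 131). From 3 peaks a run upward these intervals all overlap.

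**Figure D2:**
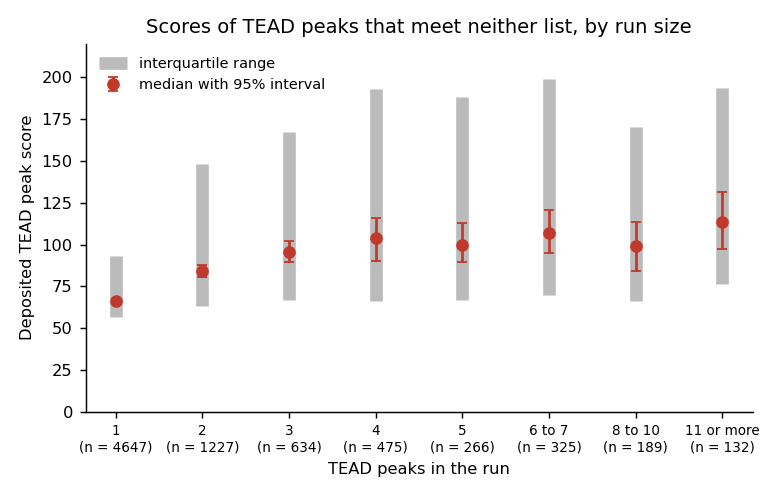
Deposited score (vertical axis) of TEAD peaks that met neither list, by the number of TEAD peaks in their run (horizontal axis, n = peaks); red points are medians with 95% intervals and grey bars interquartile ranges. The median goes from 66.2 for lone peaks to 95.3 in runs of 3, and then stays between 95.3 and 113.

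Of the 510 runs, 364 held unshared peaks alone, with 1481 peaks in all. Of these unshared runs 180 had 3 peaks, 99 had 4, 38 had 5 and 16 had 8 or more. Their median span was 10.8 kb (interquartile range 5.66 to 17.5), of which peaks covered a median of 10.2%. The other 146 runs had a median span of 13.7 kb and a median coverage of 11.5%. The median number of peaks was 4 in both kinds of run. A run with more peaks has more chances to hold a shared one, so the rule favours short unshared runs. Within such a run the strongest peak scored a median of 2.04 times the run's median, and in 111 runs 3 times or more. In 34 runs no peak reached a score of 100, and in 30 runs every peak did. In the 180 runs of 3 the strongest peak was the middle one in 60, the one at the lower coordinate in 57 and the one at the higher coordinate in 63, so no position within the run stood out.

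Neighbouring peaks of unshared runs were separated by a median of 2674 bp (interquartile range 566 to 5834, 1117 gaps). Gaps of 250 bp or less, about the length of a sonicated fragment, made up 17.1% of them (191 gaps), and gaps over 10 kb 6.62%. When TEAD peaks with gaps of 250 bp or less were joined into 1 site, a setting chosen after seeing the data, 1589 clustered unshared sites and 291 unshared runs were left. In 6 unshared runs the peaks covered over 80% of the span. One of them, on chromosome 4 from 35022691 to 35023950, consisted of 3 peaks with scores of 972, 53.4 and 446 that were 34 bp and 50 bp apart.

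The unshared run with the most peaks lay on chromosome 10 from 18841633 to 18860538. It held 21 TEAD peaks in 18.9 kb, with a median gap of 389.5 bp. Peaks covered 41.1% of it, against a median of 10.2% in unshared runs. Whether the DNA under this run is repeated was not tested, as no hg19 sequence was used. If it is, the assignment of reads to single peaks is uncertain. The run's scores ran from 52.2 to 374 with a median of 105. Of its 21 peaks 1, that of 374, reached the strongest 10% of the eligible list. The 4 runs of 11 peaks were built differently, with 1 or a few strong peaks among weak ones. On chromosome 15 from 60665074 to 60699234 a peak with a score of 1151 stood among 10 others, the next of which scored 348.5. On chromosome 12 from 89453765 to 89495168 a peak of 976 stood beside a next highest of 286. The run on chromosome 17 from 63660224 to 63694960 had 4 peaks above 250, with scores of 623, 520, 334 and 266, and 7 peaks from 61.3 to 111. The run on chromosome 1 from 93390047 to 93425173 had peaks of 625, 504 and 407 and a median of 155, the highest median of the 5 runs. None of these 5 runs had a YAP or YAP5SA peak anywhere in its span.

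Few unshared runs were strong throughout. The highest median score was that of 3 peaks on chromosome 7 from 53178943 to 53189560, which scored 62.4, 954 and 1004. Next came 3 peaks on chromosome 2 from 187406927 to 187412057 (114, 499 and 669) and the chromosome 4 run above. A run of 4 on chromosome 8 from 116599130 to 116613015 scored 58.7, 204, 877 and 669, and a run of 4 on chromosome 3 from 30323871 to 30335940 scored 503, 313, 61.4 and 575. Each of these 5 runs had at least 2 peaks above 400 and, except on chromosome 2, 1 peak below 65. The ranking by median score does not need every peak of a run to be strong. In 30 unshared runs, among them that on chromosome 2, every peak reached a score of 100.

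The 10 strongest clustered unshared peaks scored from 1087 to 1334 and ranked from 56 to 101 in the full TEAD list. The strongest, on chromosome 21 from 22760549 to 22761023, scored 1334 in a run of 5 whose next peak scored 161, and its nearest YAP and YAP5SA peaks were 22.7 kb and 22.8 kb away. The peak on chromosome 17 from 66817924 to 66818816 scored 1303, with a next highest of 141 in its run. On chromosome 2 from 188296420 to 188296954 the score was 1265 and the next 261. On chromosome 13 from 106750540 to 106751487 the score was 1249 and the next 157, and a YAP peak lay 1.058 kb away. Chromosome 10 held 3 of the 10, with scores of 1311, 1210 and 1128, the first 6.58 kb from a YAP5SA peak. The others, on chromosomes 8, 15 and 7, scored 1171, 1151 and 1087. In 9 of the 10 the run was unshared throughout, as it was for 1481 of all 2021 clustered unshared peaks. The exception was the chromosome 10 peak of 1311, whose run also held a peak of 2111 that met YAP5SA.

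The other 146 runs held at least 1 peak that met YAP or YAP5SA, and 540 clustered unshared peaks stood in them beside 207 shared ones. There was 1 shared peak in 111 of them. Of the 146, 87 met YAP5SA alone, 31 YAP alone and 28 both. The shared peaks were 27.7% of the peaks in these runs, and the strongest peak was a shared one in 121 of the 146 runs (82.9%). The unshared peaks around them had a median score of 100.3 (91.3 to 114), against 100.05 (96.2 to 105) for those in unshared runs. Unshared peaks thus had about the same scores whether or not their run also held a shared peak. The strongest peak reached a median of 633 in these runs, against 234 in unshared runs. A mixed run holds by definition at least 1 shared peak, and the shared peaks had a median score of 526. The construction therefore sets part of this difference.

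The largest of these mixed runs lay on chromosomes 19, 2, 3 and 12. The chromosome 3 run from 150010645 to 150063119 had 14 peaks, 3 of which met YAP5SA with scores of 189, 304 and 408, while its strongest peak, of 716, met neither list. The chromosome 12 run from 76017408 to 76060944 had 13 peaks, and its strongest, of 479, met YAP5SA. In the chromosome 2 run from 89850108 to 89880099, 9 of 17 peaks met YAP and none YAP5SA, and peaks covered 62.9% of the span. Whether the DNA under that run is repeated was likewise not tested.

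The 2 chromosome 19 runs held rows of strong, wide peaks, evenly spaced in the first. No hg19 sequence was used, so whether the DNA under them is repeated was not tested, and if it is, the assignment of reads to single peaks and their overlap with the other lists are uncertain. In the run from 48406749 to 48461239, 11 of 17 TEAD peaks scored 300 or more, and their centres were spaced by a median of 5.36 kb, from 4.87 to 5.67 kb. Of these 11 strong peaks 5 met neither list, 1 met YAP alone, 4 met YAP5SA alone and 1 met both. In the run from 50594088 to 50642881, 10 of 21 peaks scored 300 or more, and 4 of these 10 met neither list. There 3 of the 9 spacings ran from 3.06 to 3.18 kb and 6 from 5.09 to 5.47 kb. Weaker peaks stood between the strong ones. No other run had 6 or more peaks of that strength, and the floor of 300 was chosen after seeing the data. These 2 runs held 26 of the 49 clustered unshared peaks of chromosome 19. Of all 2021 clustered unshared peaks 9 were wider than 1 kb, and 8 of these 9 lay in the 2 runs. In the first run strong peaks at nearly even spacing were thus listed partly as shared and partly as unshared.

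**Figure D3:**
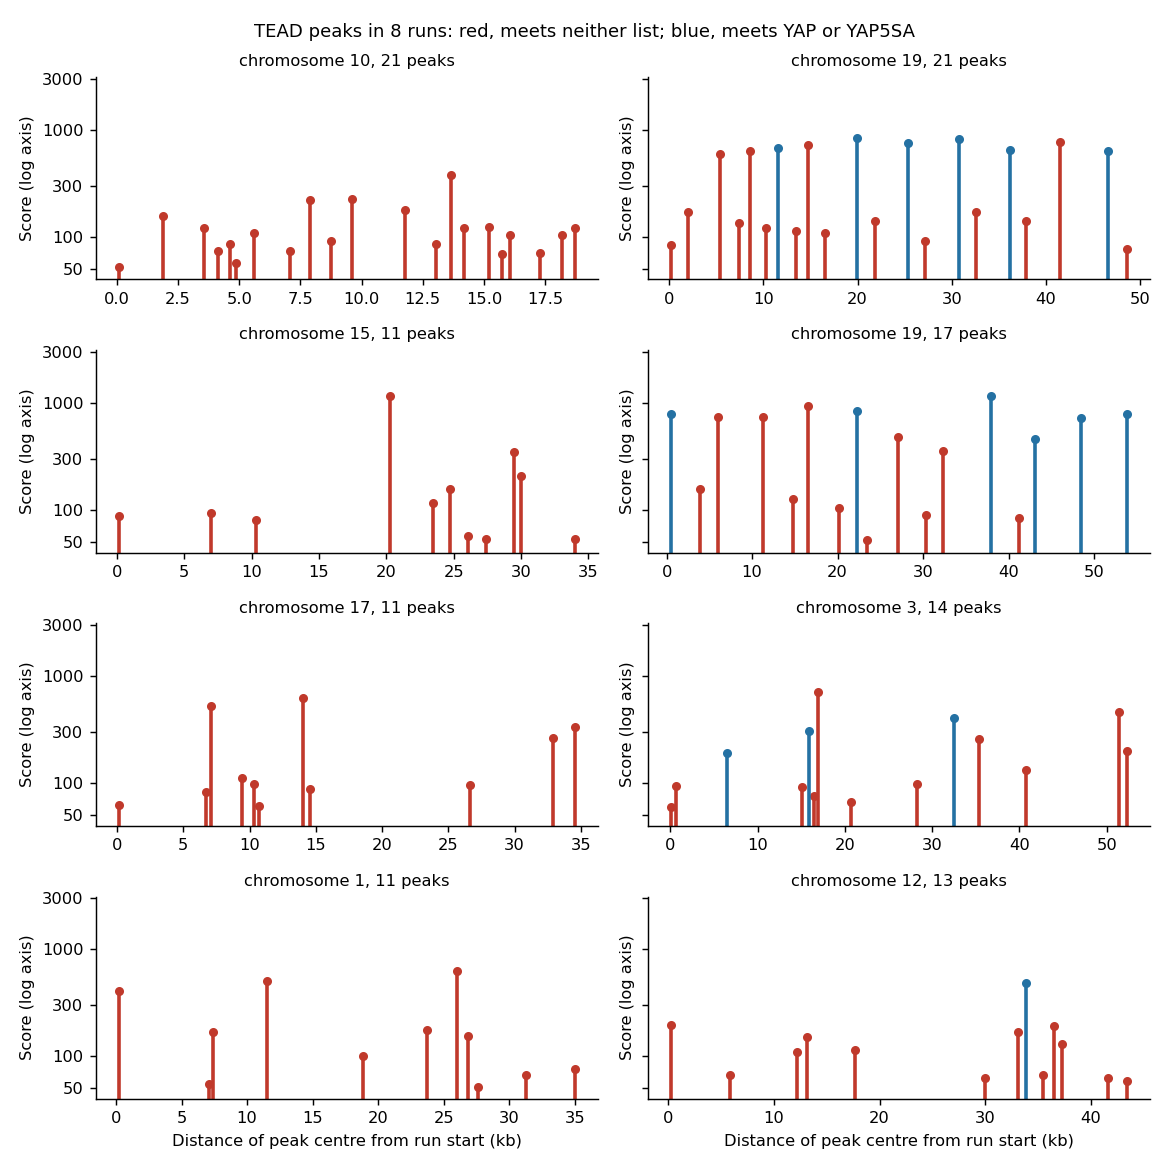
Each panel is 1 run: horizontal axis, distance of each TEAD peak's centre from the run's start (kb); vertical axis, deposited score (log scale); red peaks met neither list and blue peaks met YAP or YAP5SA. Left, 4 of the largest unshared runs; right, 4 of the largest runs with a shared peak, where strong peaks stand 4.87 to 5.67 kb apart in the chromosome 19 run of 17 peaks and 3.06 to 5.47 kb apart in that of 21.

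Distances from clustered unshared peaks to the other lists are given by kind of run. In unshared runs 8.10% of peaks (6.76 to 9.61) had a YAP5SA peak within 12500 bp and 3.38% (2.52 to 4.43) a YAP peak. For unshared peaks outside runs these shares were 9.02% (8.30 to 9.78) and 3.51% (3.05 to 4.01). In runs with a shared peak they were 68.3% and 35.6%. The construction sets part of each value: an unshared run has by definition no neighbour in the run that meets YAP or YAP5SA, a mixed run has at least 1, and peaks outside runs carry neither condition. The shares at 12500 bp are therefore not compared between these groups. Over all unshared eligible TEAD peaks they were 12.9% and 5.67%, and over the 2021 clustered ones 24.2% and 11.97%. Within 50 kb, 37.5% of the peaks of unshared runs (35.0 to 40) and 32.4% of those outside runs (31.2 to 33.6) had a YAP5SA peak. In mixed runs the share was 86.3%, and those peaks are part of the 37% for all unshared eligible peaks. The 50 kb counts include those within 12500 bp. The construction therefore also sets part of these shares and of the median distances that follow, and they are not compared either. The median distance to YAP5SA was 71.0 kb in unshared runs and 91.6 kb outside runs, and to YAP 228 kb and 262 kb. Of the 364 unshared runs 339 had neither a YAP nor a YAP5SA peak in their span, 19 had a YAP5SA peak between their peaks and 7 a YAP peak.

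**Figure D4:**
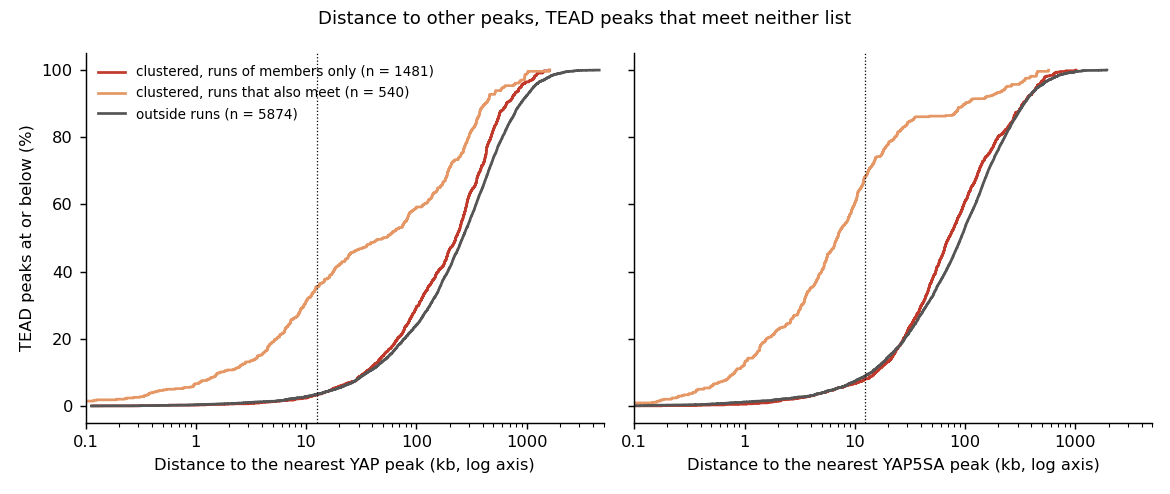
Cumulative share of unshared TEAD peaks (vertical axis, %) by distance to the nearest YAP peak (left) and YAP5SA peak (right) on a log axis in kb; the dotted line marks 12500 bp. Shares are partly set by how unshared runs (red) and mixed runs (orange) were chosen, also at 50 kb. At 50 kb from YAP5SA they are 37.5% for red, 86.3% for orange and 32.4% for peaks outside runs (grey).

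The limits of the rule passed through a continuum. The widest joined gap was 12471 bp and the narrowest unjoined one 12515 bp, with 29 gaps in the 500 bp below the limit and 40 in the 500 bp above it. The clustered unshared peak nearest to a YAP5SA peak was 27 bp from it and scored 615 (chromosome 18, 3247347 to 3247679). The one nearest to a YAP peak was 46 bp from it and scored 450 (chromosome 11, 106269086 to 106269582). The clustered peak with the smallest overlap, 1 bp, lay on chromosome 17 from 57855270 to 57855424, scored 50.2 and was left out for that base.

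Clustered unshared peaks were spread unevenly over the chromosomes. Chromosome 10 had the highest share, 180 of 487 eligible TEAD peaks (37.0%, 32.7 to 41.4), followed by chromosome 7 with 213 of 583 (36.5%, 32.6 to 40.6), against 23.8% of all eligible peaks. Chromosome 12 had 29.4% (25.6 to 33.6). The lowest shares were 5 of 165 on chromosome 16 (3.03%, 0.991 to 6.93), 9 of 97 on chromosome 22 (9.28%) and 29 of 228 on chromosome 14 (12.7%). Together chromosomes 7 and 10 carried 19.4% of the clustered unshared peaks, 12.6% of eligible TEAD peaks, 7.85% of autosomal YAP5SA peaks and 11.8% of autosomal YAP peaks. Both were picked for their high share of clustered unshared peaks, so the excess over eligible TEAD peaks is set in advance. There were 1.61 eligible TEAD peaks per YAP5SA peak on chromosome 10 and 1.43 on chromosome 7, against 0.936 over the autosomes. The YAP and YAP5SA peaks counted here were all those of a chromosome, also near stretches without a peak, where TEAD peaks were left out. These ratios and shares are therefore not like for like. Chromosomes 17 and 19 had ratios as high, 1.70 and 1.68, with clustered unshared shares of 22.2% and 15.1%. The part of TEAD peak density in these shares was not tested.

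**Figure D5:**
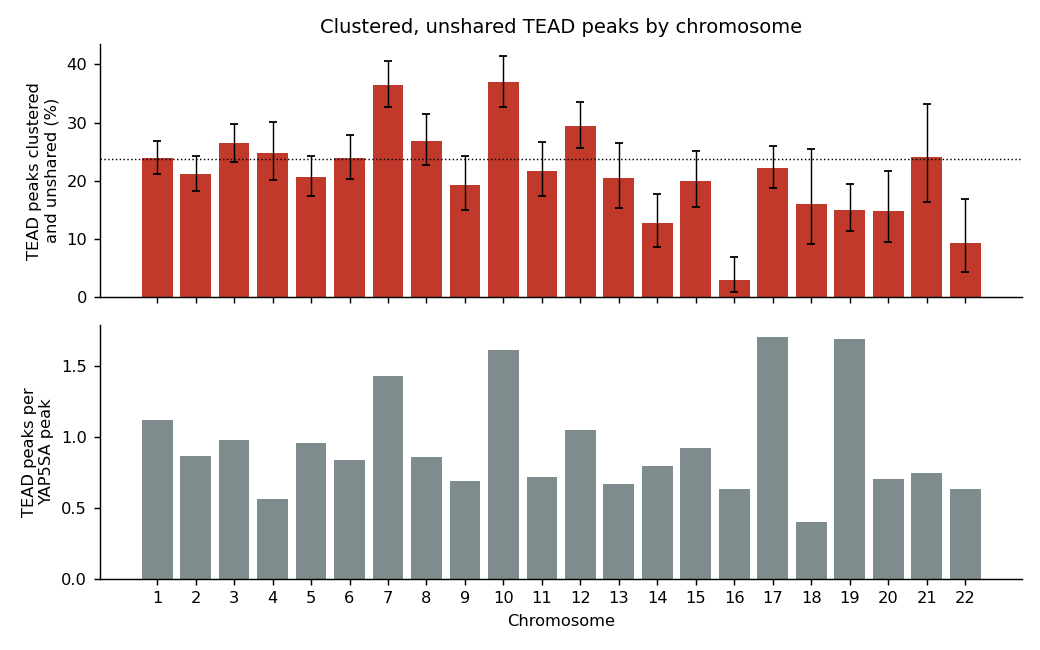
Top, share of eligible TEAD peaks that are clustered and unshared (vertical axis, %) by chromosome, with exact 95% intervals and the share of all eligible peaks, 23.8%, as a dotted line. Bottom, eligible TEAD peaks per YAP5SA peak, with YAP5SA peaks near stretches without a peak also counted. Chromosomes 7 and 10 stand at 36.5% and 37.0%, and chromosome 16 at 3.03%.

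Within chromosomes a few regions held many of these peaks. Of 290 intervals of 10 Mb with an eligible TEAD peak, 118 held no clustered unshared peak. The 5 fullest held 295 (14.6%), with 6.79% of eligible TEAD peaks and 2.13% of autosomal YAP5SA peaks. These 5 were picked for their clustered unshared peaks, which sets part of the distance between these shares in advance. The shares are therefore not compared. Chromosome 7 from 80 to 90 Mb had 70 clustered unshared peaks among 135 eligible TEAD peaks, with 19 YAP and 36 YAP5SA peaks. Chromosome 17 from 60 to 70 Mb had 64 of 138, and chromosome 10 from 10 to 20 Mb 58 of 84 (69.0%), with 7 YAP and 37 YAP5SA peaks. Without its fullest interval chromosome 10 stood at 30.3% (25.8 to 35.0) and chromosome 7 at 31.9% (27.6 to 36.5), both still above 23.8%. Chromosome 12 stood at 25.1% (21.1 to 29.5) in place of 29.4%, and chromosome 3 at 22.5% (19.2 to 26.1) in place of 26.4%. Chromosome 17 stood at 13.4% (10.2 to 17.3) in place of 22.2%. The interval left out was picked for its clustered unshared peaks, so part of each fall is set in advance.

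Runs also lay near one another. With runs joined at distances of up to 250 kb, 305 of the 510 (59.8%) had another run in their neighbourhood, and 11 neighbourhoods held 5 runs or more. The rule sets part of this share, because a gap over 12500 bp splits 1 dense group of peaks into several runs. No such share was computed for peaks outside runs. The fullest, on chromosome 7 from 79177673 to 80520397, had 12 runs with 57 clustered unshared peaks among 66 TEAD peaks, and 2 YAP and 4 YAP5SA peaks in 1343 kb. On chromosome 12 from 65697496 to 66342940 all 8 runs were unshared, with 32 peaks in 645 kb that also held 1 YAP and 3 YAP5SA peaks. The neighbourhood on chromosome 1 from 98361819 to 98799760 also had 32, in 6 runs of which 2 were unshared, with 4 YAP and 7 YAP5SA peaks. On chromosome 7 from 18387345 to 18990524, 7 runs held 28 such peaks, with 3 YAP and 2 YAP5SA peaks. On chromosome 10 from 4283981 to 4857695, 6 runs held 24, with no YAP and 2 YAP5SA peaks. On chromosome 3 from 149776683 to 150132527, 6 runs held 27, and 1 of the 6 was unshared, with 9 YAP5SA peaks and no YAP peak. On chromosome 12 from 89453765 to 89855388, 4 runs held 26, and 2 of the 4 were unshared, with 1 YAP and 2 YAP5SA peaks. On chromosome 17 from 63552889 to 63783667, 4 runs held 25, and 2 of the 4 were unshared, with 1 YAP and 4 YAP5SA peaks. The neighbourhoods named here, all those with 24 or more such peaks, thus ranged from runs all unshared to runs mostly mixed.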

How the data were processed

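Alignment was to hg19 with Bowtie2, per the submitters' processing notes. The deposited peak lists, 1 per library, give a score per peak; its reading as 10 times −log10 of p comes from its range (50 to 3100) and peak names that begin with MACS. The sources used here do not give the caller's version, threshold or control, so the lists could share a control. Coordinates were read as half-open and the negative start of 1 TEAD peak was set to 0.

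Stretches without a peak were counted between peaks (21, of which 18 on autosomes). Shares carry exact Clopper-Pearson 95% intervals and medians exact order-statistic 95% intervals. Both cover counting error only and treat peaks as independent, which peaks of a run are not, so they are too narrow. Named regions are the 10 strongest members, the 5 members-only runs with the most peaks, the 5 with the highest median score, the 5 largest runs with a shared peak, and those at the rule's limits; intervals of 10 Mb, neighbourhoods and the chromosome 19 spacing were added after the values were seen. The members and lists were chosen with earlier results of these data known. The code was tested on simulated lists, and the 594 eligible peaks that met another list equalled the count of bedtools 2.31.1. Python 3.11.15, numpy 2.4.6, pandas 2.3.3, scipy 1.17.1 and matplotlib 3.10.9 were used. Planned motif and gene results needed an hg19 genome and were left out.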

Additional observations from a re-analysis of the deposited data

How the results depend on the processing

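Across 11 alternatives to the rule, 77 values were computed for 7 results, of which 58 stayed within 1.5 times (counts) or within the 95% interval (shares and medians). Of the settings, 3 were chosen after seeing the data: counting the stretch before a chromosome's first peak, distances between centres, and joining gaps of 250 bp or less. The number of clustered unshared peaks, 2021, became 1196 with a joining distance of 5 kb and 969 in the higher-scoring 50% of the list, where fewer peaks can be joined. Unshared runs, 364 in all, numbered 184 with runs of at least 4 peaks and 172 in the higher-scoring 50%. The unshared share of clustered peaks moved from 90.7% to 85.9% when no YAP or YAP5SA peak was allowed within 1 kb, and to 86.7% in the higher-scoring 50%. The median score of the clustered unshared peaks was 95.7 at 25 kb, 147.8 in the higher-scoring 50% and 106.4 with gaps of 250 bp or less joined, and their median width 243 bp, 299 bp and 260 bp. In each of the 11 settings both medians stayed above those of unshared peaks outside runs, which were 118 and 268 bp in the higher-scoring 50%. No paired analysis was possible because no group has a second library, and for the same reason none could be omitted. Read depth is unknown, so a peak that meets neither list cannot be read as a site without YAP.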
